A study of Mus musculus with 6 samples.

Results

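The 9 genes of epithelial junctions and simple keratins were followed through the stembryo libraries: the adhesion molecule Epcam, the tight junction genes Cldn6 and Cldn7, the adherens junction gene Cdh1, the protease inhibitor genes Spint1 and Spint2, and the keratin genes Krt8, Krt18 and Krt19. They were picked by name, not by measured value, and all 9 of 9 were found among the 25595 genes of the count table. Stembryos are embryo-like structures grown from wild-type mouse embryonic stem cells, which are aggregated, given a pulse of the Wnt agonist Chiron (a GSK-3 inhibitor) and left to elongate, and which form neural tube, paraxial mesoderm and a small amount of endoderm. Pools of stembryos were dissociated and sequenced as single cells in 6 libraries. Whole stembryos at 120 h gave 2 libraries, whole stembryos at 96 h gave 2 libraries, and at 120 h the anterior part and the posterior part of dissected stembryos gave 1 library each. All groups share the same wild-type background and the same Chiron pulse, no genotype or treatment differs between them, and stembryos that failed to elongate by 120 h were not used, so that the 120 h libraries describe elongated stembryos. Nothing in the labels says that the replicates were separate cultures, and p-values therefore measure only the spread between these libraries.

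In an epithelium, neighbouring cells are held together by E-cadherin (the product of Cdh1) at adherens junctions and sealed by claudins at tight junctions. Epcam is a homophilic adhesion molecule that binds claudins, including Cldn7. Spint1 and Spint2 encode Kunitz-type inhibitors of membrane-bound serine proteases such as matriptase (St14) and prostasin (Prss8), and Epcam and Cldn7 are known substrates of matriptase. Krt8 is a type II keratin that forms the filaments of simple epithelia with the type I keratins Krt18 and Krt19. During gastrulation, cells that leave the epiblast to form mesoderm lose Cdh1, Epcam and keratins, while surface ectoderm and definitive endoderm keep or regain them.

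On the mm10 (GRCm38) assembly, Krt8 (chromosome 15, 101996698 to 102004482, minus strand) and Krt18 (chromosome 15, 102028180 to 102032027, plus strand) lie beside each other and point apart, with 23698 bases between their starts. The other genes lie apart from one another: Epcam on chromosome 17 (87635979 to 87651129, plus strand), Cldn6 on chromosome 17 (23679249 to 23682446, plus strand), Cldn7 on chromosome 11 (69964779 to 69967885, plus strand), Cdh1 on chromosome 8 (106603351 to 106670246, plus strand), Spint1 on chromosome 2 (119237362 to 119249527, plus strand), Spint2 on chromosome 7 (29256323 to 29281912, minus strand) and Krt19 on chromosome 11 (100140810 to 100148665, minus strand). Krt8 overlaps the non-coding gene Gm36026 on the opposite strand, and the annotation holds a processed pseudogene, Krt8-ps, on chromosome 7 that has no row in the count table. Only pseudogenes named after Krt8, Krt18 and Krt19 were searched for, and any effect on the counts of Krt8 was not tested.

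RefSeq promoters of 300 bases around the transcription start (GRCm38.p6) were found for 7 of the 9 genes, with Cdh1 and Krt19 not matched. The promoters of Epcam and Spint1 are shown because these genes gave the clearest change with time, and those of Krt8 and Krt18 because the pair is compared below. Each sequence runs 5′ to 3′ on the strand of its gene, and capitals mark the E-box letters CAGGTG or their reverse complement CACCTG, the site read by Snail and Zeb repressors of epithelial genes.
Epcam, chr17:87635729-87636028 (+): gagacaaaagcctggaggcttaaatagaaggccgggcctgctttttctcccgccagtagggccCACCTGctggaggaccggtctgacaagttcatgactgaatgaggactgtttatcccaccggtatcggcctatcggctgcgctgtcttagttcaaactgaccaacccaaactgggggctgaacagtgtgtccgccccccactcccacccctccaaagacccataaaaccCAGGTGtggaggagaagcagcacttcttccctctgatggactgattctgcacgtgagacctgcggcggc
Spint1, chr2:119237110-119237409 (+): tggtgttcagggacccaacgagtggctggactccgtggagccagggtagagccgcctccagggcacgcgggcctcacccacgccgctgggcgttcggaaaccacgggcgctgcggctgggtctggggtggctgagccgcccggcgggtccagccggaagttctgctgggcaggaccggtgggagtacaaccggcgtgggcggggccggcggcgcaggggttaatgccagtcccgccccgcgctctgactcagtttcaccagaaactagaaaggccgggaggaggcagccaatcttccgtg
Krt8, chr15:102004293-102004592 (-): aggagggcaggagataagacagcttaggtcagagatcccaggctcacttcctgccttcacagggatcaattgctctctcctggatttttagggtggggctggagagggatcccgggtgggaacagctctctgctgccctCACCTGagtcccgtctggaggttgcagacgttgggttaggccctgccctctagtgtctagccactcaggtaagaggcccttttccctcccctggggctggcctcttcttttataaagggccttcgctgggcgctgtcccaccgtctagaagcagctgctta
Krt18, chr15:102027966-102028265 (+): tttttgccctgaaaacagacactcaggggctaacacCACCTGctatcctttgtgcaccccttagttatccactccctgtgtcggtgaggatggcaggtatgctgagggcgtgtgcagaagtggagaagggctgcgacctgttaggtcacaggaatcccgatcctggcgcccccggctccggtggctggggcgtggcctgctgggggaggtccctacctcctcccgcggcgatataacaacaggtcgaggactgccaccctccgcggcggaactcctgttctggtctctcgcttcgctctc
The Epcam promoter held 2 matches, the Krt8 and Krt18 promoters 1 each, and the Spint1 promoter 0. Over both strands, 6 of the 8 promoters (Cldn7 has 2) held at least 1 match, against 20.2% of all 32851 mouse promoters of the same length, and Spint2 held 3, against 0.365% of all promoters with 3 or more. None held the Grainyhead-like letters AACCGGTT, which 0.146% of all promoters did. A match of letters is a description of the sequence and not evidence of a bound site.

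Library totals ranged from 24303317 to 117580506 UMIs (unique molecular identifiers, that is, counted transcript ends, into which gene length does not enter) over 2649 to 7887 cells, with medians of 8723 to 22811 UMIs per cell. Replicate 1 was deeper than replicate 2 at both times, with medians of 16375 and 9662 UMIs per cell at 120 h and of 22811 and 8723 at 96 h. The clusters are those named by the study's authors, who made them from the same cells and genes, so that levels per cluster are given as descriptions with no test. Only 75 of 26893 distinct barcodes occurred in more than 1 library. Levels are CPM, the summed UMIs of a gene scaled to the total UMIs of the same cells. The intervals given below cover counting error only.

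Spint2 was the most widely seen of the 9 genes, with at least 1 UMI in 33.0% of the 26968 cells, followed by Epcam in 16.7% and Spint1 in 16.4%. Krt8 was seen in 5.49%, Cldn6 in 4.26%, Krt18 in 4.14%, Cdh1 in 2.87%, Cldn7 in 1.23% and Krt19 in 0.745% of cells. Over the 12 clusters 8 of the genes were highest in Endoderm, and Cdh1 was highest in the cluster that joins pluripotent cells and primordial germ cells (Pluripotent/PGC). NMPs A and NMPs B, the neuromesodermal progenitors found mainly at 96 h, held more of each gene than NMPs C, found mainly at 120 h, except that Krt19 was about equal in NMPs A and NMPs C (0.401 and 0.419 CPM). The presomitic mesoderm (PSM), determination front and somite clusters were low. Krt18 was an exception in the pooled levels, at 2.38 CPM in Somite A and 4.52 CPM in Somite B, above the 1.77 CPM of NMPs C. Most of these somite UMIs came from the anterior part, which held no NMPs C. In 120 h replicate 1 Krt18 stood at 1.27 CPM (0.815 to 1.89) in Somite A and 2.68 CPM (1.70 to 4.02) in Somite B. NMPs C stood at 1.09 CPM (0.738 to 1.54) there. In replicate 2 these clusters stood at 2.77, 3.32 and 1.64 CPM, with overlapping intervals. Spint1 pooled to 14.1 CPM in Early PSM and 11.1 CPM in NMPs C, clusters found mainly at different times. In single libraries that order was not seen. Early PSM stood at 14.0 CPM (12.9 to 15.1) and NMPs C at 19.0 CPM (8.20 to 37.4, 8 UMIs) in 96 h replicate 1. In the posterior part they stood at 13.1 CPM (6.28 to 24.1, 10 UMIs) and 16.55 CPM (14.75 to 18.5). The intervals overlapped in both libraries, so that neither shows an order.

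**Figure D1:**
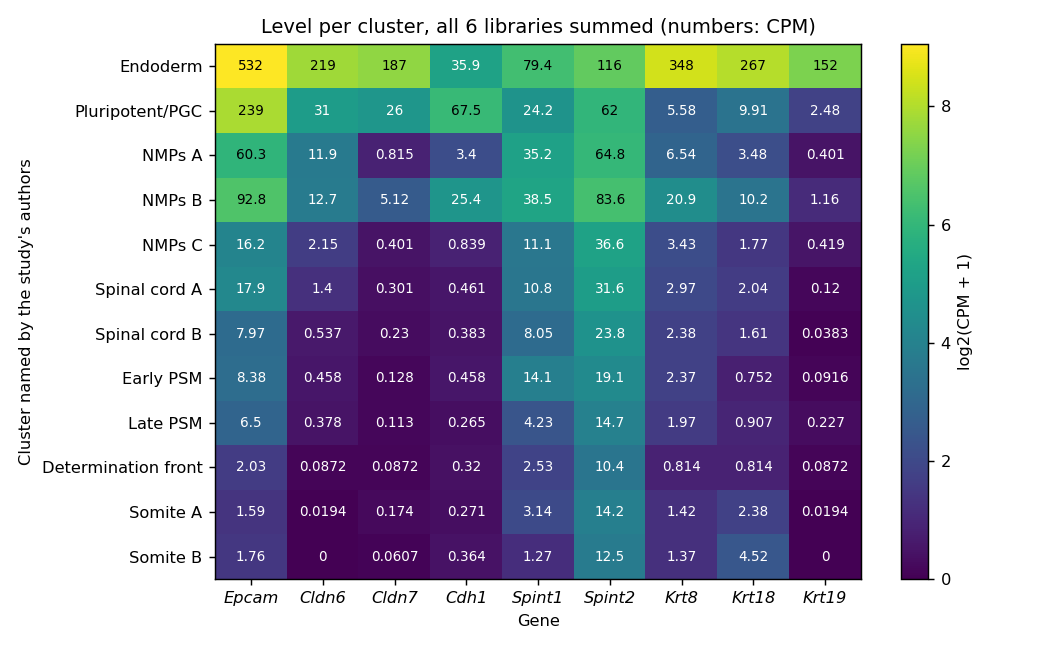
Level of each gene (columns) in each of the 12 clusters (rows) with the 6 libraries summed. Colour is log2(CPM + 1) and the numbers are CPM: Epcam runs from 532 in Endoderm to 1.59 in Somite A, and Spint2 from 116 in Endoderm to 10.4 in the determination front.

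The cluster called Endoderm held 205 cells, and 183 of them (89.3%) came from the posterior part at 120 h, where they made up 2.32% of the library. The whole 120 h libraries held 1 and 7 such cells, the whole 96 h libraries 2 and 11, and the anterior part 1. Its name fits its markers in part. Sox17, a transcription factor of definitive endoderm, stood at 149.9 CPM in these cells against 0.401 CPM in all other cells, Foxa2 at 61.6 against 0.148 CPM, and Trh, an early gut tube transcript, at 954 against 6.45 CPM. Gata4 (0.685 CPM, against 0.0764 CPM in all other cells) and Cer1 (0.685 CPM, against 6.89 CPM in all other cells) were nearly absent. The pluripotency genes Zfp42 and Utf1, the trophoblast genes Elf5, Ascl2 and Hand1, the notochord gene Noto and the endothelial genes Pecam1, Cdh5, Kdr and Emcn were all at 0 in them. Further pluripotency and trophoblast genes were above 0, as was the endothelial gene Tek (1 UMI, 0.342 CPM, against 0.0263 CPM in all other cells). Pou5f1 stood at 7.19 CPM, against 9.14 CPM in all other cells, and Dppa5a at 5.48 against 25.0 CPM. Tfcp2l1 (7 UMIs) stood at 2.40 against 0.858 CPM, and Gata3 (3 UMIs) at 1.03 against 0.437 CPM. Some other markers of notochord and surface ectoderm were higher than in the rest of the cells. Shh stood at 9.24 CPM in Endoderm cells, against 0.0143 CPM in all other cells, and Chrd at 10.6 against 1.07 CPM. Dlx5 stood at 17.1 against 0.229 CPM, Grhl3 at 14.7 against 4.63 CPM and Krt15 at 3.42 against 0.134 CPM. The surface ectoderm gene Wnt6 went the other way, at 8.56 against 13.1 CPM. The notochord gene Nog differed little, at 2.05 against 1.63 CPM. In the 183 such cells of the posterior part the 15 endoderm genes listed summed to 1466 CPM and the 10 pluripotency genes to 13.9 CPM, but the 9 NMP genes to 1123 CPM (Cdx2, also a hindgut gene, the highest) and the 8 PSM genes to 561.5 CPM.

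In the 183 Endoderm cells of the posterior part the junction genes Epcam, Cldn6 and Cldn7 stood at 550.2, 220.7 and 189.8 CPM, and Cdh1 only at 29.0 CPM. The inhibitor genes Spint1 and Spint2 stood at 80.2 and 112.6 CPM, and the keratins Krt8, Krt18 and Krt19 at 342.3, 262.5 and 161.9 CPM. The genes differed in how much of their total came from this small cluster. Of all UMIs of Krt19 in the 6 libraries, 82.2% lay in Endoderm cells, as did 68.6% of those of Cldn7, 43.0% of Krt18, 39.9% of Krt8 and 32.4% of Cldn6. The share was 14.8% for Epcam, 10.3% for Cdh1, 3.94% for Spint1 and 2.52% for Spint2. These pooled shares rest on the posterior part, which held most of the Endoderm cells. Within that library Endoderm gave 92.9% of the UMIs of Krt19, 91.8% of Cldn7, 75.9% of Krt18, 75.8% of Cldn6 and 72.5% of Krt8. In the whole libraries it gave 0 of 26 and 11 of 19 UMIs of Cldn7 at 120 h, against 1 of 77 and 11 of 101 at 96 h.

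Cell by cell, 171 of the 183 posterior Endoderm cells (93.4%, exact 95% interval 88.8 to 96.6) had at least 1 UMI of Epcam, at a median depth of 12841 UMIs. In the determination front of the same library, a mesoderm cluster, 40 of 1140 cells (3.51%) did, at a median depth of 12938 UMIs, and whether these UMIs are free RNA or low expression was not tested. Cldn6 was seen in 159 of the 183 Endoderm cells and in 2 of the 1140 determination front cells. Krt8 was seen in 158 of the Endoderm cells and in 0.877% of the determination front cells, Krt18 in 139 and in 1.23%, and Cdh1 in 55 (30.1%) and in 0.702%. Spint2, seen in 137 of the Endoderm cells, was also seen in 12.5% of the determination front cells. After thinning every cell to 5000 UMIs, Epcam was seen in 83.1% of the Endoderm cells, Krt8 in 68.3%, Cldn6 in 60.9%, Spint2 in 43.4% and Cdh1 in 13.1%.

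The cells of this cluster were not alike. Epcam reached 78.3 CPM at the 10th percentile of cells, 541.7 CPM at the median and 1050 CPM at the 90th, whereas Krt19 was at 0 at the 10th percentile, 74.5 CPM at the median and 517.7 CPM at the 90th. Across the 183 cells the rank correlation of CPM was highest for the filament partners Krt8 and Krt18 (Spearman's rho 0.62), which were seen together in 128 cells and were both missing from 14. Cldn7 and Krt19 came next (rho 0.59), seen together in 88 cells and both missing from 55. Every one of the 112 cells with a UMI of Cldn7 also had a UMI of Epcam (rho 0.54). Epcam was seen in 93.4% of all 183 cells, however, and in 54 of the 55 cells with a UMI of Cdh1. Spint1 and Spint2 hardly ranked together (rho 0.08), nor did Cdh1 and Spint2 (rho 0.02). These cells share 1 library, and the correlations are descriptions.

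**Figure D2:**
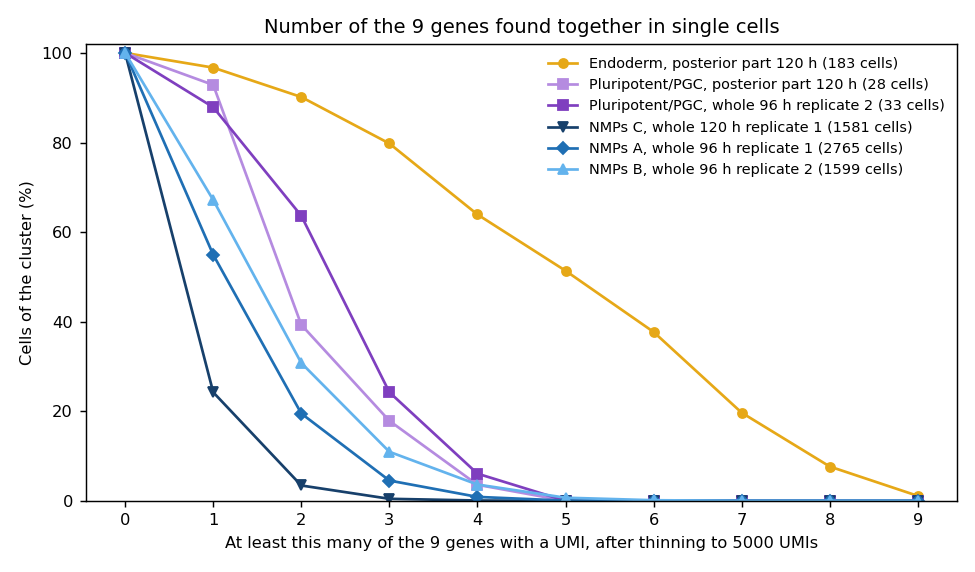
Share of the cells of a cluster (y axis, percent) that held at least a given number of the 9 genes (x axis) after thinning each cell to 5000 UMIs. In posterior Endoderm 51.4% of cells held 5 or more genes, whereas the other lines are near 0 from 5 genes on.

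Many of the genes were often found in the same Endoderm cell, a description only, since the genes were among those clustered on. After thinning to 5000 UMIs, 94 of the 183 posterior Endoderm cells (51.4%) held at least 5 of the 9 genes, and 142 (77.6%) did without thinning. Over all libraries 121 of 26661 cells of that depth held at least 5, and 105 of these (86.8%) were Endoderm cells, 13 were NMPs B, 2 were NMPs A, 1 was Late PSM and 0 were Pluripotent/PGC. The share depended on the number asked for: of 232 cells with at least 4 genes, 132 (56.9%) were Endoderm, 62 were NMPs B and 29 were NMPs A. The plot of genes found together in single cells also sets the progenitor clusters of the 2 times side by side. At least 3 of the 9 genes were found in 7 of 1581 NMPs C of 120 h replicate 1 (0.443%), in 125 of 2765 NMPs A of 96 h replicate 1 (4.52%) and in 175 of 1599 NMPs B of 96 h replicate 2 (10.9%).

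Cdh1 was the gene whose pooled level was highest in Pluripotent/PGC. It stood at 121.2 CPM in the 35 Pluripotent/PGC cells of 96 h replicate 2 and at 44.3 CPM in the 28 such cells of the posterior part. In the posterior part Endoderm was lower, at 29.0 CPM (22.9 to 36.2), but in 96 h replicate 2 the 11 Endoderm cells stood higher, at 241.6 CPM (153.2 to 362.6, 23 UMIs), so that the order was not the same in the 2 libraries. The Pluripotent/PGC cells held Epcam as well (251 and 193.7 CPM in the same 2 libraries), but less keratin than posterior Endoderm. Krt8 stood at 8.66 and 4.93 CPM there, Krt18 at 5.77 and 13.1 CPM (2 and 8 UMIs) and Krt19 at 0 and 4.93 CPM. In the posterior part this level of Krt18 was above the 2.87 CPM of NMPs C. Among progenitors Cdh1 separated NMPs B, at 23.5 and 25.7 CPM in 96 h replicates 1 and 2, from NMPs A, at 3.29 and 4.89 CPM in the same libraries. For Krt8 the clusters stood apart in replicate 1 (22.4 CPM in NMPs B and 6.11 CPM in NMPs A), but in replicate 2 their counting intervals overlapped (20.6 CPM, 18.4 to 22.9, in NMPs B and 15.01 CPM, 10.9 to 20.2, in NMPs A). NMPs B supplied 41.0% of all UMIs of Cdh1. Of the cells called NMPs B, 96.6% came from 96 h replicate 2, and of those called NMPs A, 87.2% came from 96 h replicate 1, so that the replicates of 96 h differ in which of these clusters make up their NMP cells. Pluripotency markers differed between them too: the 10 listed genes summed to 118.2 CPM in the NMP cells of 96 h replicate 2 and to 13.6 CPM in those of replicate 1, and their part in the level of Cdh1 was not tested.

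**Figure D3:**
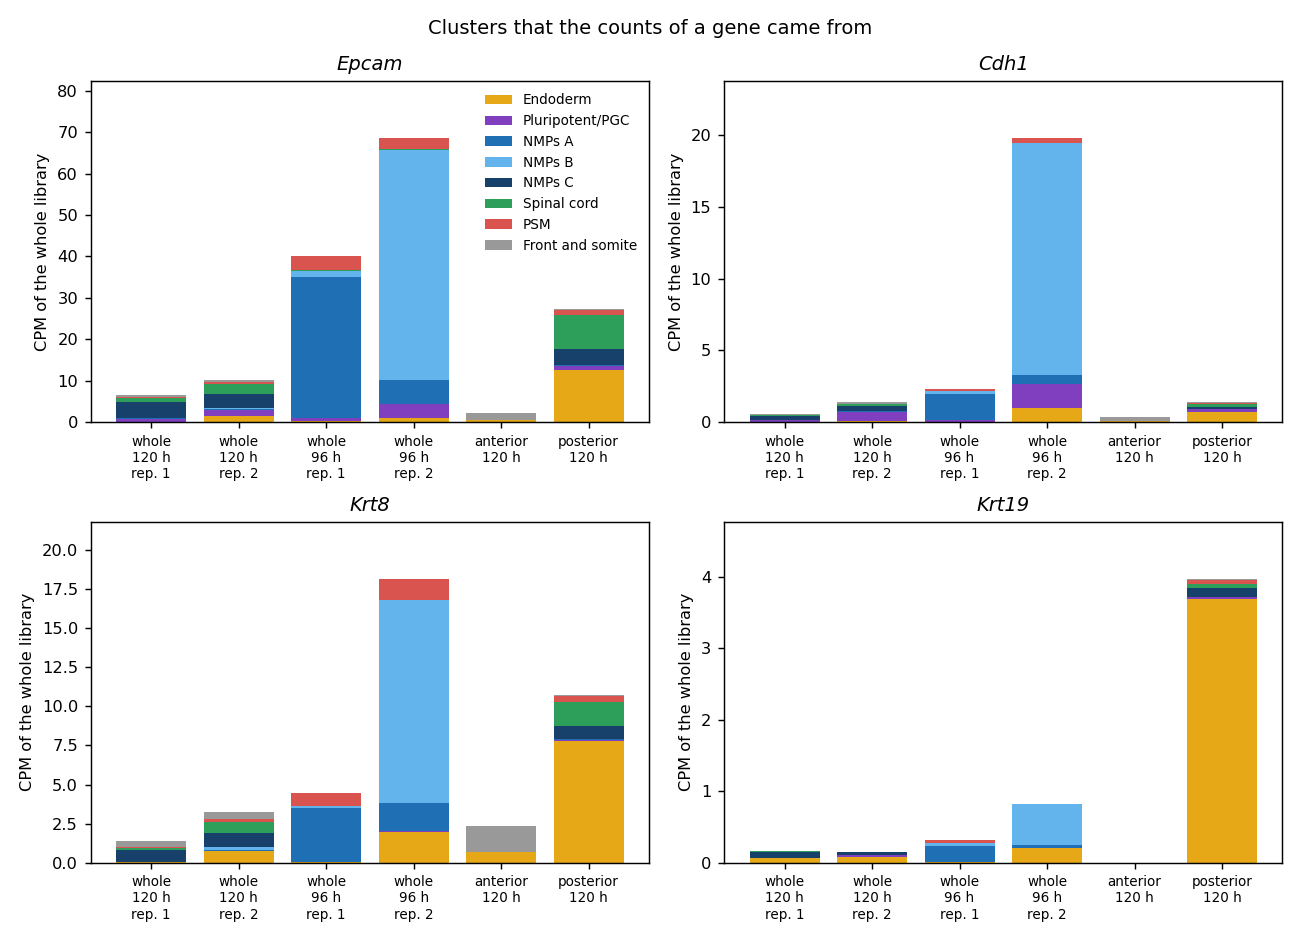
Level of Epcam, Cdh1, Krt8 and Krt19 in each library (bar height, CPM of the whole library) divided by the cluster the UMIs came from (colours). In 96 h replicate 2 NMPs B gave 55.5 of 68.7 CPM of Epcam, and in the posterior part Endoderm gave 3.69 of 3.97 CPM of Krt19.

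Between the times, all 9 genes averaged less in the whole 120 h libraries than in the whole 96 h libraries, and Epcam and Spint1 fell beyond the spread between replicates. In sums over whole libraries, fewer cells of a type and less RNA per cell cannot be told apart. Epcam, which marks epithelial cells most broadly, stood at 6.54 and 10.2 CPM at 120 h, against 40.0 and 68.7 CPM at 96 h. The times did not overlap, and the change was -2.78 ± 0.29 on the log2 scale (SE, n = 2 each, edgeR quasi-likelihood test, adjusted p = 0.03608). Spint1 stood at 4.56 and 6.09 CPM at 120 h, against 26.1 and 33.0 CPM at 96 h, again without overlap, a change of -2.56 ± 0.16 (adjusted p = 0.02106, edgeR). These were the 2 of 9 genes that passed the test downwards, where 0.265% of the 18114 genes tested did. The call of Epcam was lost without normalization factors (adjusted p = 0.0678) and with the dissected pool as an added 120 h sample (adjusted p = 0.06573, edgeR).

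With the replicate number as a block, which here is a batch shared by the 2 times, 8 of the 9 genes fell, where 8.15% of all genes tested did, and Krt19 alone did not pass (adjusted p = 0.1011, edgeR). The blocked changes were -3.42 ± 0.30 for Cldn6 (adjusted p = 0.0004321), -1.86 ± 0.41 for Cldn7 (0.0211), -2.99 ± 0.38 for Cdh1 (0.002326), -1.13 ± 0.09 for Spint2 (0.0002924), -2.15 ± 0.21 for Krt8 (0.0007446) and -1.45 ± 0.23 for Krt18 (0.005542), all from edgeR. Without the block the same 6 genes had adjusted p-values between 0.07395 (Cldn6) and 0.3566 (Krt18). The median change of the 9 genes was -2.35 without the block and -2.15 with it, beside 0.02 and 0.01 over all genes tested.

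Cldn6 stood at 0.497 and 1.51 CPM at 120 h, against 7.43 and 9.96 CPM at 96 h, and Spint2 at 23.7 and 30.9 CPM at 120 h, against 45.4 and 69.3 CPM at 96 h. Neither gene overlapped between times. For the other genes the replicates of 96 h stood far apart. Cdh1 stood at 0.582 and 1.39 CPM at 120 h, against 2.31 and 19.8 CPM at 96 h, and Krt8 at 1.39 and 3.27 CPM at 120 h, against 4.47 and 18.2 CPM at 96 h. Replicate 2 of 96 h set the size of these changes: without it the change of Cdh1 was -1.47 and that of Krt8 -1.17, and without replicate 1 they were -4.44 and -3.03. Krt18 (1.17 and 2.63 CPM at 120 h, against 2.43 and 8.52 CPM at 96 h) and Cldn7 (0.315 and 0.715 CPM at 120 h, against 0.655 and 4.16 CPM at 96 h) overlapped between times. Krt19 was near the limit of detection in these 4 libraries, at 0.170 and 0.150 CPM at 120 h, against 0.323 and 0.823 CPM at 96 h. For 7 of the 9 genes every 120 h library lay below every 96 h library, as was true of 15.1% of the genes tested.

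**Figure D4:**
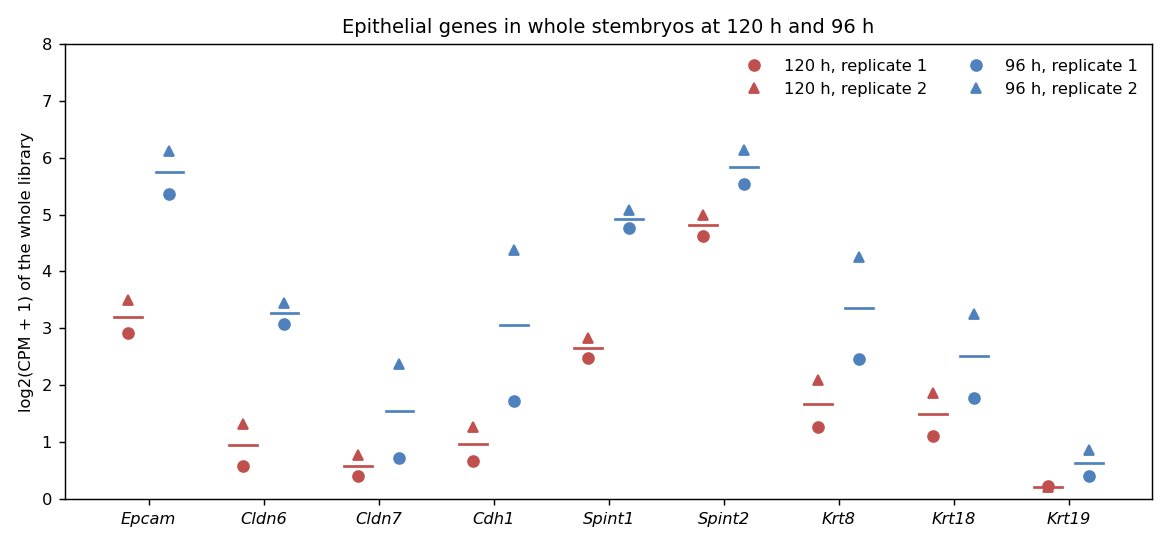
Level of the 9 genes (x axis) in the 2 whole libraries of 120 h (red, left) and the 2 of 96 h (blue, right), as log2(CPM + 1) on the y axis. Circles are replicate 1, triangles replicate 2 and lines the mean of the plotted values; for Cldn7 and Krt18 the times overlap.

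Leaving out the Endoderm and Pluripotent/PGC cells, a choice made after seeing the data, did not lower the change of any of the 9 genes. Epcam then changed by -3.05 ± 0.24 (adjusted p = 0.02043), Cldn6 by -4.07 ± 0.28 (adjusted p = 0.01767) and Spint1 by -2.59 ± 0.15 (adjusted p = 0.01767), and these were the 3 of 9 genes that passed edgeR's test. Over all genes, 58 of the 18003 tested passed downwards in that fit. Markers of other cell types in the whole libraries also moved. The 10 pluripotency genes summed to 17.0 and 61.0 CPM at 120 h and to 27.6 and 189.7 CPM at 96 h, and the 15 endoderm genes to 27.9 and 59.9 CPM at 120 h, against 15.3 and 63.3 CPM at 96 h. The part of pluripotent cells in the changes was not tested beyond leaving out their cluster.

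Within progenitors the direction was the same. The NMP cells (clusters A, B and C summed per library) also came from different clusters: at 120 h 1581 of 1594 and 651 of 695 were NMPs C, and at 96 h 2765 of 2832 were NMPs A in replicate 1 and 1632 of 1956 were NMPs B in replicate 2. In these sums Epcam stood at 12.0 and 13.4 CPM at 120 h, against 62.4 and 81.6 CPM at 96 h, and Spint1 at 8.45 and 8.57 CPM at 120 h, against 35.3 and 37.9 CPM at 96 h. Cldn6 stood at 1.01 and 1.43 CPM at 120 h, against 12.3 and 11.01 CPM at 96 h. For all 9 genes each 120 h library lay below each 96 h library, as for 13.7% of the 15584 genes tested. Without the block none of the 9 passed edgeR's test, where 0% of all genes passed downwards and 0.00642% upwards (1 gene), and 1800 genes had an unadjusted p under 0.05. The changes were -2.59 ± 0.16 for Epcam, -2.19 ± 0.14 for Spint1 (both with adjusted p = 0.05179) and -3.43 ± 0.28 for Cldn6 (adjusted p = 0.06686, edgeR). With the block 7 of the 9 fell, where 3.55% of all genes did: Epcam (-2.57 ± 0.11), Cldn6 (-3.49 ± 0.24), Cdh1 (-3.06 ± 0.38), Spint1 (-2.19 ± 0.12), Spint2 (-1.05 ± 0.09), Krt8 (-1.96 ± 0.23) and Krt18 (-2.08 ± 0.26), with adjusted p-values from 0.0003148 for Epcam to 0.008177 for Krt18. Cldn7 and Krt19 did not pass (edgeR adjusted p = 0.1627 and 0.1947). DESeq2's Wald test also called 7 of the 9, where it called 236 of the 15584 genes tested downwards. The 10 pluripotency genes summed to 5.01 and 6.76 CPM in the NMP cells at 120 h and to 13.6 and 118.2 CPM at 96 h, and the 15 endoderm genes to 25.1 and 38.1 CPM at 120 h, against 13.4 and 40.0 CPM at 96 h. Utf1 was at 0 in both 120 h sums, Ttr was at 0 in all 4 sums, and Sox17, Foxa2 and Trh were above 0. The part of these cell types in the changes was not tested.

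The PSM cells (Early and Late PSM summed) came from different clusters at the 2 times: at 120 h 427 of 433 and 110 of 140 cells were Late PSM, and at 96 h 2006 of 2055 and 601 of 606 were Early PSM, so that time and cluster cannot be told apart in this comparison. In them 4 of the 9 genes had enough counts to be tested, and Spint1 was the gene that fell: it stood at 3.12 and 3.80 CPM at 120 h, against 13.8 and 16.1 CPM at 96 h, a change of -2.26 ± 0.27 (adjusted p = 0.02671, edgeR), where 0.133% of the 12021 genes tested fell. The times did not overlap, but the call rested on the deeper 120 h library and was lost without 120 h replicate 1 (-2.17, edgeR adjusted p = 0.1935). Epcam stood at 2.41 and 9.13 CPM at 120 h, against 8.07 and 12.3 CPM at 96 h, overlapping, with a change of -1.33 ± 0.53 (adjusted p = 0.4681); with the block it was -1.38 ± 0.34 and passed (adjusted p = 0.04314, edgeR), where 3.23% of all genes fell. Spint2 stood at 16.6 and 20.5 CPM at 120 h, against 18.7 and 24.7 CPM at 96 h and did not pass (-0.35 ± 0.20, edgeR adjusted p = 0.6487), nor did Krt8 (-1.88 ± 1.10, adjusted p = 0.6626). The PSM cells of 120 h numbered only 433 and 140, and the other 5 genes were too low to test. The 10 pluripotency genes summed to 4.25 and 6.08 CPM in the PSM cells at 120 h, against 8.90 and 62.1 CPM at 96 h, with Nanog and Esrrb at 0 in 3 of the 4 libraries, and their part was not tested.

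The change of Spint2 differed between the 2 cell classes. It was -1.06 in NMP cells and -0.35 in PSM cells, a difference of -0.69 ± 0.15 (adjusted p = 0.02446 in an edgeR fit over both classes with the library as a block), and it was the only one of the 8 genes tested to pass, where 1.56% of the 14842 genes tested did. The call was lost without 120 h replicate 1 (-0.74, adjusted p = 0.4834), without 120 h replicate 2 (-0.67, 0.1057) and without 96 h replicate 1 (-0.65, 0.05564, edgeR). For Spint1 the difference was 0.10 ± 0.28, within 1 SE of no difference. Epcam differed by -1.08 ± 0.37 and did not pass (adjusted p = 0.225, edgeR).

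**Figure D5:**
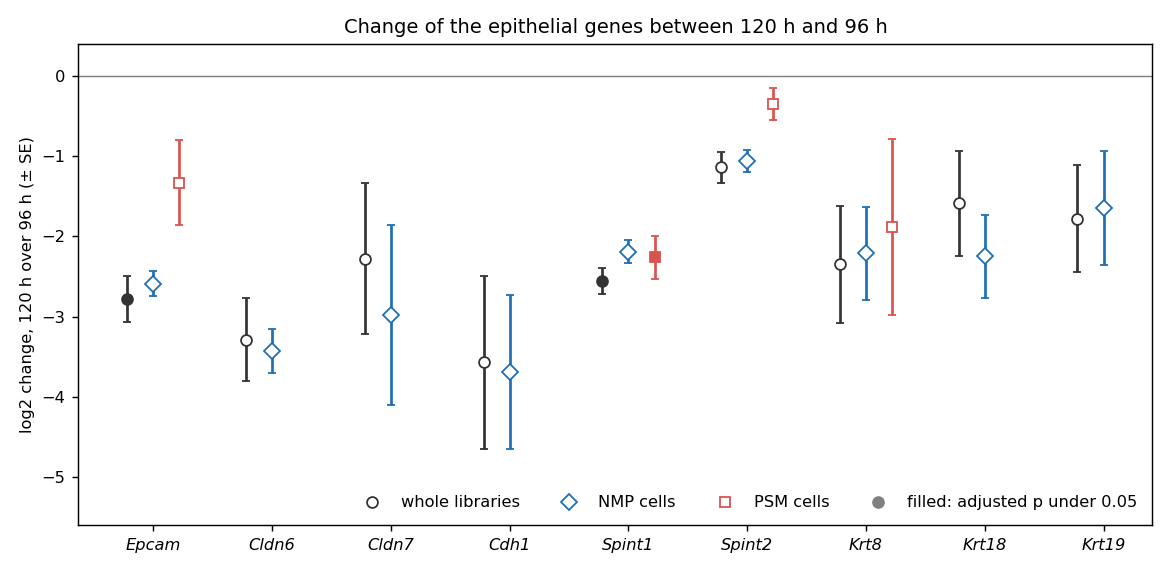
Change with time of each gene (x axis) as log2 of 120 h over 96 h (y axis) in whole libraries (circles), NMP cells (diamonds) and PSM cells (squares). Bars are ± SE from edgeR's quasi-likelihood fit without a block, filled symbols have an adjusted p under 0.05, and genes with no square were too low to test in PSM cells.

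The share of cell types differed between the times as well as the level within them. NMP cells gave 34.9% and 28.9% of the UMIs at 120 h and 57.3% and 75.1% at 96 h, and PSM cells 8.57% and 4.95% at 120 h and 41.7% and 21.7% at 96 h. Spinal cord, determination front and somite cells together gave 56.4% and 65.2% at 120 h but 0.644% and 1.38% at 96 h. When the levels of 120 h were weighted with the cell shares of the 96 h library of the same replicate number, over 4 groups of cells, Epcam came to 9.05 CPM in replicate 1 and 17.6 CPM in replicate 2. Those values lie nearer to the measured 6.54 and 10.2 CPM of 120 h than to the measured 40.0 and 68.7 CPM of 96 h. The shares of 120 h with the levels of 96 h gave 28.9 and 40.1 CPM. For Spint2 the same sums were 27.5 and 36.9 CPM for the levels of 120 h with the shares of 96 h, beside 23.7 and 30.9 CPM measured at 120 h and 45.4 and 69.3 CPM at 96 h, and 32.6 and 51.1 CPM for the converse. The genes differed in this. For Krt8 the levels of 120 h with the shares of 96 h gave 1.42 and 5.24 CPM, and the converse 2.40 and 7.06 CPM. All of these lie nearer to the measured 1.39 and 3.27 CPM of 120 h than to the 4.47 and 18.2 CPM of 96 h. NMPs A, B and C form 1 group here, so that a change of cluster within it counts as a change of level. These sums are a description, and the 96 h levels of spinal cord, front and somite rest on 38 and 41 cells.

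The partner genes did not keep a fixed ratio. Of the UMIs of Spint1 and Spint2 together, Spint1 made up 16.2% and 16.5% in whole stembryos at 120 h and 36.5% and 32.3% at 96 h. The same held within NMP cells (19.3% and 17.7% at 120 h, 35.1% and 31.6% at 96 h) and within PSM cells (15.8% and 15.6% at 120 h, 42.5% and 39.5% at 96 h), with no overlap between these libraries of the 2 times in any of the 3 sums. The posterior part at 120 h did not follow this split: there the share was 30.1% in all cells, 31.9% (29.1 to 34.8) in NMP cells, above the 31.6% of 96 h replicate 2, and 27.3% in PSM cells. The anterior part also stood above the whole 120 h libraries, at 25.75% in Somite A, against 11.8% and 14.6%. In Somite B it was 10.6%, against 6.475% and 9.52%. Both dissected parts are batch 2 in the authors' annotation, which no whole library is, so that dissection and batch cannot be told apart. In posterior Endoderm the share was 41.6% (37.3 to 46.0). Of the UMIs of Krt8 and Krt18 together, Krt8 made up 54.5% and 55.4% in whole stembryos at 120 h and 64.8% and 68.1% at 96 h, whereas within NMP cells the times overlapped (67.4% and 68.2% at 120 h, 63.3% and 68.8% at 96 h). In the anterior part somites leaned towards Krt18: Krt8 made up 36.5% (28.1 to 45.5) in Somite A and 20.3% (14.2 to 27.5) in Somite B, against 56.6% (54.1 to 59.0) in posterior Endoderm. The whole 120 h libraries were less uniform. There Krt8 made up 48.9% (34.1 to 63.9) and 20% (5.73 to 43.7) in Somite A. In Somite B it made up 25.8% (11.9 to 44.6) and 60% (26.2 to 87.8), the last from 10 UMIs. No test was made of these ratios, since the clusters were made from the same cells.

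At 120 h the anterior and posterior parts, 1 library each and so without a test, differed in all 9 genes. Epcam stood at 2.18 CPM (1.80 to 2.61, exact Poisson interval) in the anterior part and 27.4 CPM (26.5 to 28.4) in the posterior part, Spint1 at 2.60 CPM in the anterior and 11.5 CPM in the posterior part, and Spint2 at 10.7 CPM in the anterior and 26.7 CPM in the posterior part. Cldn6 and Krt19 had 0 UMIs in the anterior part, which allows up to 0.0554 CPM (3 counts), and stood at 6.63 and 3.97 CPM in the posterior part. Krt8 stood at 2.33 CPM in the anterior and 10.8 CPM in the posterior part. Of the 25 UMIs of Cldn7 in the anterior part (0.462 CPM, against 4.71 CPM in the posterior part), 20 came from its single Endoderm cell.

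Leaving out Endoderm and Pluripotent/PGC cells changed the order for Krt18. With all cells it stood at 4.34 CPM in the anterior part and 7.88 CPM in the posterior part, and without these clusters at 3.82 CPM (3.32 to 4.38) in the anterior part and 1.88 CPM (1.64 to 2.15) in the posterior part. Krt8 kept its order, at 1.63 CPM in the anterior and 3.02 CPM in the posterior part. Epcam did too, at 1.81 CPM in the anterior and 14.3 CPM in the posterior part. The anterior part held 21 spinal cord A cells and the posterior part 2897. In the determination front, which both parts held (268 cells in the anterior and 1140 in the posterior part), the 2 parts had overlapping intervals for Spint1, at 3.33 CPM (1.86 to 5.49) in the anterior and 2.88 CPM (2.13 to 3.82) in the posterior part. Krt8 was higher there in the anterior part, at 2.44 CPM (1.22 to 4.37), against 0.661 CPM (0.330 to 1.18) in the posterior part. These levels came from 11 UMIs each, and the order was the opposite of that over all cells. The size of this difference rested on the cells with the most UMIs. Under the stricter UMI limit, described below, Krt8 stood in the determination front at 1.02 CPM in the anterior and 0.763 CPM in the posterior part.

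Among other epithelial genes few passed the test without the block. Over all genes tested in whole libraries, 0.265% fell and 0.580% rose without the block, and 8.15% fell and 8.89% rose with it. Of the 10 tested of 15 listed epithelial regulators and sorting genes (such as Grhl2, Esrp1 and Klf5), 0 passed edgeR's test in whole libraries without the block and 5 fell with it (Grhl2, Esrp1, Klf5, Rab25 and Lsr), and the median change was -1.32, beside 0.02 over all genes. Lsr, a tricellular junction protein, stood at 21.8 and 32.4 CPM at 120 h, against 41.6 and 56.6 CPM at 96 h, a blocked change of -0.95 ± 0.09 (adjusted p = 0.0005904, edgeR). Of 22 tested of 28 tight junction genes, 0 passed without the block, and 7 fell (Cldn4, Cldn3, Ocln, Marveld2, F11r, Cgn and Patj) and 2 rose (Cldn11 and Cldn1) with it, with a median of -0.24. The 2 that rose are near the share of all genes that did. Widely used scaffold genes did not pass: Tjp1 changed by 0.25 (edgeR adjusted p = 0.4732) and Ctnnb1, the catenin that links Cdh1 to actin, by 0.18 ± 0.13 (adjusted p = 0.6236). Of 16 tested of 19 adherens junction and desmosome genes, 0 passed without the block and 4 fell with it (Dsp, Pkp2, Dsg2 and Ppl), with a median of -0.14. Among 12 other keratins 2 had enough counts to be tested, and Krt10 (35.2 and 25.3 CPM at 120 h, against 25.5 and 18.2 CPM at 96 h) changed by 0.38 (edgeR adjusted p = 0.6598), though it rose with the block.

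St14, which encodes matriptase, a protease that Spint1 and Spint2 inhibit, fell with Spint1. It stood at 1.13 and 1.05 CPM at 120 h, against 9.59 and 7.61 CPM at 96 h, a change of -3.06 ± 0.29 (adjusted p = 0.02928, edgeR). Of the 5 tested genes listed as membrane serine proteases and relatives, it alone passed without the block, where 0.265% of all genes fell. With the block Prss8 (-1.94 ± 0.29, adjusted p = 0.004554) and Tmprss2 (-1.14 ± 0.25, adjusted p = 0.02169, edgeR) also fell, where 8.15% of all genes did. Met, listed as a relative and not itself a protease gene, rose (1.36 ± 0.25, adjusted p = 0.01022, edgeR). Of 12 mesenchymal genes tested, 2 rose without the block, where 0.580% of all genes did, and 8 with it (Cdh2, Cdh6, Cdh11, Vim, Zeb1, Twist1, Twist2 and Prrx1), where 8.89% did, while Fn1 and Snai1 fell with it. Cdh11, a mesenchymal cadherin, stood at 20.6 and 19.6 CPM at 120 h, against 2.02 and 2.51 CPM at 96 h, a change of 3.09 ± 0.18 (adjusted p = 0.02106), and Twist1, a transcription factor of mesenchyme, at 60.1 and 57.1 CPM at 120 h, against 10.1 and 17.5 CPM at 96 h, a change of 2.04 ± 0.24 (adjusted p = 0.04637, edgeR).

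Over 30 sums of a cluster within a library, each of at least 50 cells, the 9 genes followed each other to different degrees. The log2 levels of Cldn7 and Krt19 correlated most (Pearson r 0.97), those of Epcam and Spint1 at 0.92, and those of Spint2 and Krt19 least (0.53). Cldn6 lay closest to the mean of the 9 (r 0.97) and Spint2 farthest (r 0.82). Outside the list, and among 7830 genes of at least 10 CPM, the pattern was most alike in Bpgm (r 0.88), Stard10 (0.87), Pgm3 (0.87), Rbpms (0.84) and Igfbp2 (0.82). Bpgm stood at 91.1 CPM and Igfbp2 at 419.5 CPM in posterior Endoderm. The posterior part gave the only Endoderm sum among them, with Cldn7 at 189.8 CPM and Krt19 at 161.9 CPM. The next highest level of Cldn7 was 5.02 CPM, in NMPs B of 96 h replicate 2. How far the correlations rest on the Endoderm sum was not tested. These sums share libraries and cells, and the correlations carry no test.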

How the data were processed

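Single cells of 6 mouse stembryo libraries were sequenced on 10x chemistry (V3 for replicate 1 and both dissected parts, V3.1 for replicate 2). According to the study's methods, reads were counted with Cell Ranger 6.0 on mm10 with Ensembl release 98 and filtered with Seurat 4.0.2. The deposited count table holds whole UMI counts of 25595 genes in 26968 cells, which the authors had already filtered by UMIs and mitochondrial share: cells held 0.302 to 2.48 times the mean UMIs of their library. The authors also deposited, per cell, the mitochondrial percent (at most 7.98%), cell cycle scores that were not used, the batch and the cluster (12 in all). Columns of unused samples numbered 0, and 0 rows lacked a gene name. No doublet caller was run, since the methods used an upper UMI limit; a limit of 1.5 times the mean was an alternative.

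UMIs were summed per library, and per library and class of at least 20 cells. Sums of 120 h and 96 h were compared with edgeR 4.0.16 (R 4.3.3, limma 3.58.1) by its quasi-likelihood test without a block, with TMM factors, filterByExpr and Benjamini-Hochberg adjustment over all genes tested, and genes with an adjusted p under 0.05 were called. NMP and PSM classes were compared in a fit with the library as a block. The SE is the log2 change over the square root of F. Python 3.11.15 with scipy 1.17.1 gave exact 95% intervals and thinning. Alternatives were the replicate block, DESeq2 1.42.0, other or no factors, no filter, the stricter UMI limit, the dissected pool as an added sample and each replicate left out. The scripts were tested on simulated data.

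The authors' annotation puts same-numbered whole replicates of both times in the same batch (1 for replicate 1, 4 for replicate 2), so the numbers pair the samples. It puts both dissected parts in batch 2. Differences between replicates correlated between the times at 0.567 over 18114 genes for the whole libraries, at 0.541 for the NMP class and at 0.429 for the PSM class. The block leaves 1 residual degree of freedom. All 9 genes were named; of other lists, the genes called without the block and otherwise up to 3 of the highest mean level, with genes called only with the block in whole libraries given by name; and the 5 genes most alike over cluster sums. The genes and lists were chosen with earlier results of these data known.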

Additional observations from a re-analysis of the deposited data

Results flagged for a closer look

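The change of Spint2 between 120 h and 96 h differed between the 2 cell classes by the test of the difference itself. It was -1.06 on the log2 scale in NMP cells and -0.35 in PSM cells, a difference (NMP minus PSM) of -0.69 ± 0.15 (edgeR quasi-likelihood test, adjusted p = 0.02446). Its size ranged from -0.74 to -0.67 without a 120 h replicate and from -0.69 to -0.65 without a 96 h replicate, but the call was kept only without 96 h replicate 2 (edgeR adjusted p = 0.0107). It was lost without 120 h replicate 1 (0.4834), without 120 h replicate 2 (0.1057), without 96 h replicate 1 (0.05564) and in DESeq2's Wald test (adjusted p = 0.2801).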

How the results depend on the processing

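In whole libraries 153 genes were called in the fit without a replicate block, 3088 with the replicate block, 1199 with no filter on low counts, 1165 by DESeq2, 514 with the dissected pool as an added 120 h sample and 3030 with the replicate block and without Endoderm and Pluripotent/PGC cells (chosen after seeing the data); leaving out 1 replicate gave 100 to 399. In NMP cells the count was 1, and 1122 with the replicate block, 1010 with no filter, 446 by DESeq2 and 22 with the dissected pool; leaving out 1 replicate gave 0 to 292, with 0 without either 120 h library (993 and 1149 genes at an unadjusted p under 0.05). In PSM cells it was 52, and 828 with the replicate block, 528 with no filter, 169 by DESeq2 and 184 with the dissected pool; leaving out 1 replicate gave 23 to 545. For the difference between NMP and PSM cells it was 231, and 414 with no filter and 113 by DESeq2; leaving out 1 replicate gave 44 to 417. Dropping the normalization factors changed the split of whole-library calls to 97 higher and 25 lower (105 and 48 with them) and that of PSM calls to 46 and 11 (36 and 16 with them), and shifted the median of all genes to 0.10 and 0.11. The cause of these differences was not tested.

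Among the 9 genes the direction with time turned only for Krt19, to 1.05 with the dissected pool, which holds the posterior Endoderm cells. Of the differences between NMP and PSM cells, that of Cldn7 (2.98) turned to -1.56 by DESeq2 and ranged from -3.18 to 3.56 when 1 replicate was left out, that of Cdh1 (-1.61) from -2.05 to 4.46, that of Spint1 (0.10) from -0.06 to 0.18 and that of Krt8 (-0.12) from -1.56 to 1.29; none of these was called. Whole-library calls of Epcam and Spint1 held whichever library was left out. Under the stricter UMI limit 129 of 135 levels moved by less than their counting interval. Shares of cells with a UMI depend on depth: 33 of 45 moved when cells were not thinned. No fit was possible for Endoderm or Pluripotent/PGC cells, which fell under 20 cells in some whole libraries, and the alternatives planned for them were not run.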
